A study of Mus musculus with 9 samples.

Results

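The keratins are the intermediate filament proteins of epithelial cells. They were taken here as all genes whose symbol in the array's probe annotation is Krt followed by a number and at most 1 letter, which leaves out the keratin-associated proteins. This rule found 48 keratin genes among the 18194 genes measured, of which 23 encode type II and 24 type I keratins, and 1, Krt222, was assigned to neither type. They were measured in yMaSC organoids, MaSC organoids and LD cells of the mouse mammary gland, with 3 arrays of each group lettered A, B and C.

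The yMaSC organoids (labelled yOrg) were grown from LD cells after expression of YAP, a transcriptional coactivator of the Hippo pathway, from a doxycycline-inducible vector. The methods describe lentiviral wild-type YAP with rtTA, and organoids kept without doxycycline, so they carried the vectors but not the inducer. The MaSC organoids (labelled Org) were grown from native mammary cells, with no YAP expression named. The paper sorted these by FACS as a basal fraction enriched in stem cells (EpCAM-low, CD49f-high and CD61-positive). The LD cells (labelled Lum) were luminal differentiated cells, sorted as EpCAM-high, CD49f-low and CD61-negative and taken directly from the gland. The methods give young adult virgin C57BL/6J mice as the default source of the mammary cells. Both kinds of organoid grew inside Matrigel under a medium containing noggin, R-spondin 1, EGF, bFGF and heparin, whereas the LD cells were not cultured. Organoid against LD cell and cultured against fresh cell therefore cannot be told apart. An organoid is a mixture of luminal and basal cells, and in such bulk RNA fewer cells of a type and less RNA per cell cannot be told apart either. The labels call the arrays biological replicates but do not say whether letters mark animals or days.

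Keratin filaments form from pairs of a type I and a type II protein, and the pair changes with the kind of epithelium. In the mammary gland, Krt8 and Krt18 with Krt19 and Krt7 fill the luminal cells, while Krt5 and Krt14 with Krt17 mark the basal and myoepithelial cells. In skin, Krt6a, Krt6b, Krt16 and Krt17 are known as keratins that rise in wounded or fast-dividing epidermis, Krt1 and Krt10 replace Krt5 and Krt14 in the upper epidermis, and Krt4 belongs to internal stratified epithelia such as the oesophagus. A further set builds the hair shaft and the inner root sheath of the hair follicle. In mice the type II genes and Krt18 lie in a cluster on chromosome 15 and the other type I genes in a cluster on chromosome 11, which gave 24 measured keratins on each.

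The start regions of 3 members are given below as sequence, and no link from their letters to the values was tested. The members are the basal Krt5 and the luminal partners Krt8 and Krt18, a pair of neighbours on the chromosome although of different types. Each is given with 250 bases before and 50 after the annotated start, from RefSeq on GRCm38.p6, at chr15:101712856-101713155, chr15:102004293-102004592 and chr15:102027966-102028265. Krt5 and Krt8 are read on the minus strand and Krt18 on the plus strand, all 5′ to 3′. Capitals mark TATAAA, the core of the TATA box, on the gene's strand.
Krt5: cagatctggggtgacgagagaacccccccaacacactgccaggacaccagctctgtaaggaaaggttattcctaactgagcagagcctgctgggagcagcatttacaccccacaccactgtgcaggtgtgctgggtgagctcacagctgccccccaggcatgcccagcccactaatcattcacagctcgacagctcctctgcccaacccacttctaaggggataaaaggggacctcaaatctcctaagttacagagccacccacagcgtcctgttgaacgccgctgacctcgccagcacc
Krt8: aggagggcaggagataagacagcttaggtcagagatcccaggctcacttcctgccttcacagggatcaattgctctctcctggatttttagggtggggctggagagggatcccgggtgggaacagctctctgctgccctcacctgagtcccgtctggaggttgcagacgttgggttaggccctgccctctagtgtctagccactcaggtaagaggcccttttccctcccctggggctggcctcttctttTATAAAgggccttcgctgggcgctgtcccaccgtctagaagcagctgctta
Krt18: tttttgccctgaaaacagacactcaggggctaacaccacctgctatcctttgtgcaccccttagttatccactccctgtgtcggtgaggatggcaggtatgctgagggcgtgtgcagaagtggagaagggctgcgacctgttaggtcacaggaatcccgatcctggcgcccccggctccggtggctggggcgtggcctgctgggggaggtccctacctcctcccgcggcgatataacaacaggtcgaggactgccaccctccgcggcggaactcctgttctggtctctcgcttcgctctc
The capitals appear in Krt8 from base 250 of the window, so they overlap the annotated start rather than lie upstream of it. Only exact matches were marked, so near matches such as gataaa in Krt5 are in small letters. The letters GGAATG, the core of the motif bound by TEAD, the DNA-binding partner of YAP, and TGANTCA, bound by AP-1, were searched on both strands and are in none of these 3 windows. Of the 48 keratins, 32 had a start window in the table, and 26 of these lay at the annotated gene start, within 10 bases. The windows of the other 6, among them Krt14, lay only inside the gene and were not used. GGAATG was in the window of 1 of the 26 (Krt20), against 14.7% of all 32851 windows, and TGANTCA in that of 1 (Krt13), against 7.81%. TATAAA was in 14 of the 26, against 8.32% of all windows. These 14 were mostly hair follicle keratins, such as Krt25, Krt27, Krt31 and Krt71, and of the 14 only Krt8 and Krt32 passed a test against LD cells below.

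Values are log2 intensities that the authors made by RMA, an array method that corrects background, equalizes the arrays and merges each probe set into 1 value, so a difference of 1 is a 2-fold change. Where a keratin had several probe sets, as 9 did, the one with the highest mean over the 9 arrays was used. Lower quartiles of the arrays were 3.47 to 3.59, medians 5.11 to 5.15, upper quartiles 7.39 to 7.59 and maxima 14.42 to 14.66. All 3 group means lay below the median of the arrays for 26 of the 48 keratins. Changed keratins are those with an adjusted p under 0.05 in a limma fit of the 3 groups, by Benjamini and Hochberg's method across the 18194 genes.

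The labels were checked against markers other than keratins. The 10 luminal markers measured averaged 10.33 to 10.58 in yMaSC organoids, 10.30 to 10.79 in MaSC organoids and 10.95 to 11.29 in LD cells. Of these, 5 were lower in each kind of organoid, and 2, Elf5 and Gata3, were higher. The 11 basal markers averaged 8.28 to 9.11 in yMaSC organoids, 8.09 to 9.79 in MaSC organoids and 6.07 to 6.86 in LD cells. In each kind of organoid 5 of these were higher, 0 were lower and 6 did not pass. The LD arrays also carried other cells' markers. Ptprc, the pan-leukocyte CD45, was at 2.64 to 2.99 in yMaSC organoids, 2.70 to 2.98 in MaSC organoids and 8.17 to 8.94 in LD cells, and all 7 leukocyte markers averaged 4.12 to 4.62 in yMaSC organoids, 4.17 to 4.34 in MaSC organoids and 5.49 to 6.03 in LD cells. LD array B stood apart with endothelial genes (Cdh5 at 6.32 and Emcn at 6.31, against 2.90 to 3.39 in LD arrays A and C), and the 5 endothelial markers averaged 3.58 to 3.66 in yMaSC organoids, 3.51 to 3.56 in MaSC organoids and 3.65 to 5.74 in LD cells. The 5 fibroblast markers averaged 5.57 to 5.84 in yMaSC organoids, 5.74 to 6.03 in MaSC organoids and 6.22 to 7.6 in LD cells, again highest in LD array B, where Col1a2, a collagen, was at 8.48, against 6.83 in LD array A and 5.93 in LD array C. Of these 5, Col1a2 and Lum were lower and Pdgfra higher in each kind of organoid. Skin keratinocyte markers (5 measured of 6) averaged 4.26 to 4.52 in yMaSC organoids, 4.31 to 4.47 in MaSC organoids and 4.86 to 4.95 in LD cells, and the desmosomal genes of upper epidermis Dsg1a and Dsc1 were at 2.38 to 3.19 in every array. The part of these cells in the keratin values was not tested.

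Against LD cells, more keratins were lower than higher in the organoids, while among all genes more were higher than lower. In yMaSC organoids 12 of the 48 keratins (25%) were lower, against 14.3% of all genes, and 2 (4.17%) were higher, against 21.6%. In MaSC organoids 14 (29.2%) were lower, against 15.2% of all genes, and 1 (2.08%) was higher, against 22.1%. The share of higher genes among all changed genes differed with the scaling of the arrays. With cyclic loess or quantile normalization it was 49.4% to 50.8%. Both methods make the arrays alike, and the cause of the difference between scalings was not tested. The median difference of the 48 keratins was -0.24 log2 in yMaSC organoids and -0.25 in MaSC organoids, beside -0.01 in yMaSC organoids and -0.02 in MaSC organoids over all genes. Both comparisons use the same 3 LD arrays, so they are not separate evidence. Without LD array B 14 keratins were lower and 1 higher in each kind of organoid, but the share of all genes in that fit was not counted. When each array was moved to a common median, which shifted the differences of all genes by about -0.25 log2, 33 keratins were lower in yMaSC organoids, against 38.1% of all genes, and 34 in MaSC organoids, against 38.4%. That shift leaves the gap between the keratins' median and that of all genes at -0.22 by construction. With cyclic loess the gap was -0.19 in each kind of organoid.

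By type, 9 of 23 type II keratins were lower and 1 higher in each kind of organoid. Among the 24 type I keratins, 3 were lower and 1 higher in yMaSC organoids and 5 lower and 0 higher in MaSC organoids. Of all genes, 14.3% were lower and 21.6% higher in yMaSC organoids, and 15.2% lower and 22.1% higher in MaSC organoids. The types also differed in brightness, as 13 type II and 9 type I keratins had a group mean at or above the array median. Of these 22, 13 changed in yMaSC organoids and 14 in MaSC organoids, against 1 of the 26 dimmer keratins in each. The types were not tested against each other. All 6 organoid arrays lay below all 3 LD arrays for 19 keratins (39.6%), against 17.1% of all genes, and above them for 2 (4.17%), Krt5 and Krt14, against 23.3%.

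**Figure D1:**
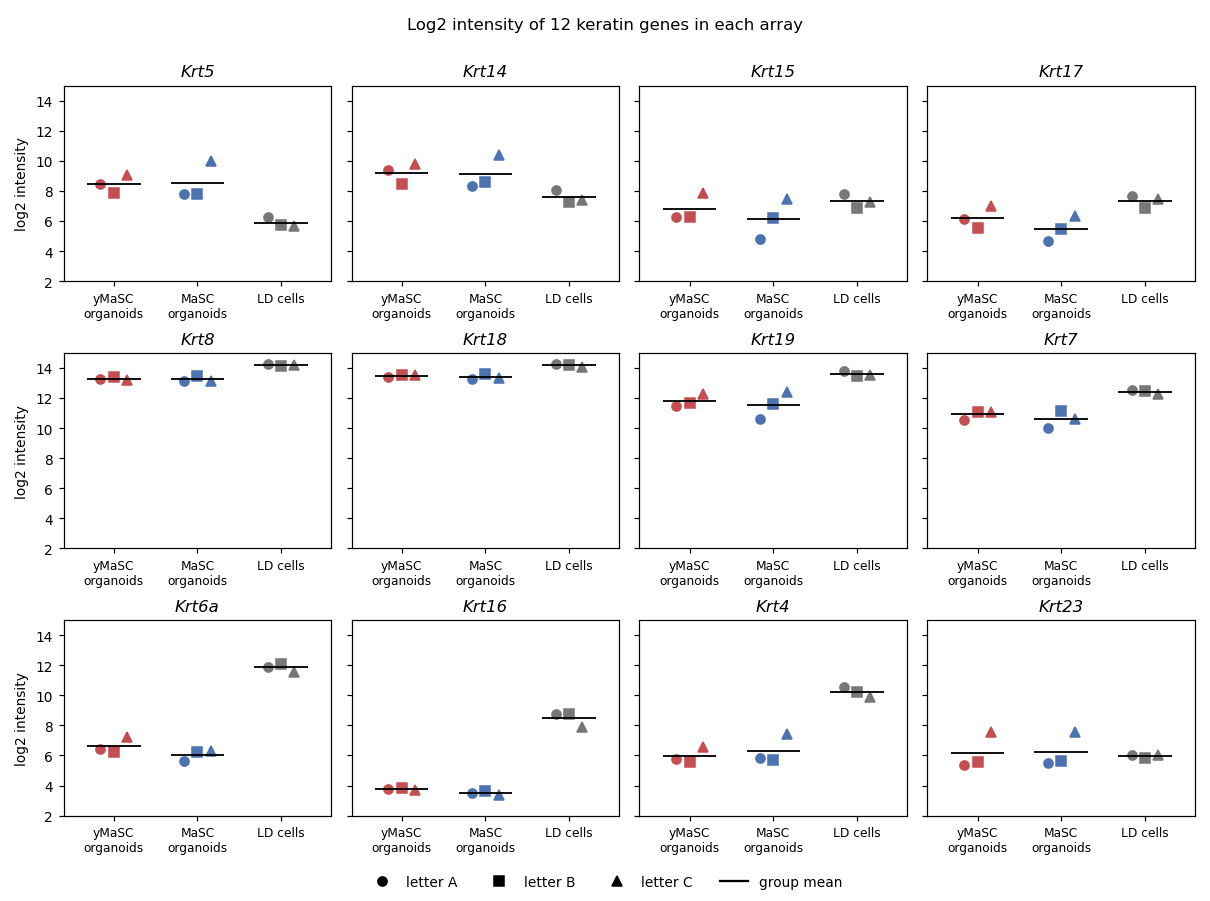
Log2 intensity (y axis) of 12 keratin genes in each of the 9 arrays, by group (x axis, yMaSC organoids, MaSC organoids, LD cells), with the symbol giving the replicate letter and the line the group mean. Krt5 and Krt14 lay above the LD arrays in all 6 organoid arrays, Krt8, Krt18, Krt19, Krt7, Krt6a, Krt16 and Krt4 were lower in every organoid array, and Krt23 reached 7.54 and 7.57 only in the organoid arrays of letter C.

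The luminal keratins were lower in both kinds of organoid than in LD cells, and stayed above the upper quartile of the arrays in all of them. Krt8, the type II luminal keratin, was at 13.27, 13.41 and 13.18 in yMaSC organoids (arrays A, B and C), at 13.16, 13.48 and 13.14 in MaSC organoids and at 14.26, 14.13 and 14.17 in LD cells. Krt18, its type I partner, was at 13.38, 13.55 and 13.55 in yMaSC organoids, at 13.29, 13.57 and 13.34 in MaSC organoids and at 14.23, 14.21 and 14.09 in LD cells. No organoid array of either gene reached the lowest LD array, and both partners fell. Krt8 changed by -0.90 log2 in yMaSC organoids (95% interval -1.17 to -0.63, adjusted p = 0.000524) and by -0.93 in MaSC organoids (-1.20 to -0.65, adjusted p = 0.000419). Krt18 changed by -0.68 in yMaSC organoids (-0.93 to -0.43, adjusted p = 0.00136) and by -0.78 in MaSC organoids (-1.02 to -0.53, adjusted p = 0.000641). These differences are under 2-fold, and the LD values lie within 1 log2 of the array maxima, whose part in their size was not tested. All 3 probe sets of Krt8 changed, by -0.90 to -1.14 in yMaSC organoids and -0.93 to -1.19 in MaSC organoids.

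Krt19, a type I keratin of simple and ductal epithelia, varied more between organoids. It was at 11.46, 11.67 and 12.27 in yMaSC organoids, at 10.58, 11.57 and 12.37 in MaSC organoids and at 13.79, 13.49 and 13.54 in LD cells, a fall of 1.81 log2 in yMaSC organoids (3.50-fold, adjusted p = 0.00742) and of 2.10 in MaSC organoids (4.29-fold, adjusted p = 0.00331). Krt7, a type II keratin of simple and glandular ducts, was at 10.55, 11.06 and 11.10 in yMaSC organoids, at 10.01, 11.14 and 10.58 in MaSC organoids and at 12.50, 12.44 and 12.26 in LD cells. It fell by 1.497 log2 in yMaSC organoids (2.82-fold, adjusted p = 0.00252) and by 1.82 in MaSC organoids (3.54-fold, adjusted p = 0.000836). For both genes the 3 LD arrays lay close together and above every organoid array, while the 6 organoid arrays spread over more than 1 log2.

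The basal pair went the other way. Krt5, the type II basal keratin, was at 8.45, 7.85 and 9.05 in yMaSC organoids, at 7.82, 7.79 and 9.96 in MaSC organoids and at 6.25, 5.73 and 5.69 in LD cells. It rose by 2.56 log2 in yMaSC organoids (5.90-fold, interval 1.28 to 3.84, adjusted p = 0.00696) and by 2.63 in MaSC organoids (6.20-fold, interval 1.36 to 3.91, adjusted p = 0.00577). Every organoid array was above every LD array, and the organoid array C of each kind was the highest of its group. Krt14, its type I partner, was at 9.36, 8.49 and 9.80 in yMaSC organoids, at 8.34, 8.61 and 10.40 in MaSC organoids and at 8.04, 7.27 and 7.42 in LD cells. The groups did not overlap, though MaSC array A lay only slightly above LD array A. The difference was 1.64 in yMaSC organoids (interval 0.41 to 2.87, adjusted p = 0.0433), which passed, and 1.54 in MaSC organoids (interval 0.31 to 2.77, adjusted p = 0.053), which did not. The call in yMaSC organoids ended in 6 of the 9 fits without 1 array, those without yMaSC array A or C, MaSC array B or any of the LD arrays (adjusted p = 0.0528 to 0.122). A second Krt14 probe set, without the suffix that marks probes shared with related transcripts, differed by 2.15 in yMaSC organoids (adjusted p = 0.0217) and 2.03 in MaSC organoids (adjusted p = 0.0275). The remaining probe set, at 3.22 to 3.38 in the group means and so below the lower quartile, differed by 0.05 in yMaSC organoids and -0.10 in MaSC organoids.

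The remaining keratins of basal mammary cells and of the hair follicle bulge did not follow Krt5 and Krt14. Krt17, which pairs with type II keratins in basal and wounded epithelia, was at 6.11, 5.52 and 6.98 in yMaSC organoids, at 4.64, 5.48 and 6.33 in MaSC organoids and at 7.68, 6.88 and 7.48 in LD cells. It was lower in MaSC organoids (-1.86 log2, adjusted p = 0.0139) and did not pass in yMaSC organoids (-1.14, adjusted p = 0.0957), where array C overlapped the LD range. With the replicate letter as a block over all arrays the difference in yMaSC organoids passed (adjusted p = 0.044), as it did without yMaSC array C (-1.53, adjusted p = 0.0361). The block pairs letters that LD cells do not share with the organoids, and the other fit drops the very array that overlapped the LD range. Neither of these fits therefore shows that Krt17 is lower in yMaSC organoids. Krt15, a type I keratin of basal cells and bulge stem cells, was at 6.24, 6.25 and 7.88 in yMaSC organoids, at 4.77, 6.23 and 7.49 in MaSC organoids and at 7.79, 6.87 and 7.29 in LD cells. It passed neither in yMaSC organoids (-0.53, interval -2.07 to 1.02, adjusted p = 0.592) nor in MaSC organoids (-1.15, interval -2.70 to 0.39, adjusted p = 0.223). Single arrays moved Krt15. Without both organoid arrays of letter C, the highest of their groups, the MaSC value was -1.82 (adjusted p = 0.0158), and without MaSC array A, the lowest, it was -0.46 (adjusted p = 0.607).

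The largest changes of the family were in keratins of activated epidermis. Krt6a, a type II keratin, was at 6.46, 6.24 and 7.20 in yMaSC organoids, at 5.63, 6.23 and 6.28 in MaSC organoids and at 11.89, 12.10 and 11.58 in LD cells, 37.4-fold lower in yMaSC organoids (-5.22 log2, adjusted p = 5.93e-06) and 56.1-fold lower in MaSC organoids (-5.81, adjusted p = 3.7e-06). Krt16, its type I partner in epidermis, was at 3.77, 3.86 and 3.71 in yMaSC organoids, at 3.49, 3.63 and 3.35 in MaSC organoids and at 8.76, 8.78 and 7.88 in LD cells. It was lower in yMaSC organoids (-4.69, adjusted p = 4.29e-06) and in MaSC organoids (-4.98, adjusted p = 2.83e-06), and no fold is given because the organoid values lie near the lower quartile of the arrays, where a dim gene's level is not well measured. The gap between groups was several times the range within any group for both genes. All 3 probe sets of Krt6a were lower, with differences of -3.21 to -5.22 log2 in yMaSC organoids and -3.16 to -5.81 in MaSC organoids. Krt6b, the near-identical neighbour of Krt6a, was at 3.58, 3.71 and 3.58 in yMaSC organoids, at 3.57, 3.58 and 3.22 in MaSC organoids and at 3.75, 4.08 and 3.58 in LD cells, with differences of -0.18 in yMaSC organoids (adjusted p = 0.405) and -0.35 in MaSC organoids (adjusted p = 0.111). Krt6a and Krt6b, and likewise Krt14, Krt16, Krt17 and Krt42, are alike in sequence, so their probes may share signal.

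A group of type II keratins next to Krt8 also fell. Krt4 was at 5.79, 5.55 and 6.58 in yMaSC organoids, at 5.84, 5.68 and 7.40 in MaSC organoids and at 10.56, 10.21 and 9.88 in LD cells, 18.9-fold lower in yMaSC organoids (-4.24, interval -5.28 to -3.21, adjusted p = 0.000164) and 15-fold lower in MaSC organoids (-3.91, interval -4.95 to -2.87, adjusted p = 0.000235). Its second probe set differed by -5.07 in yMaSC organoids and -4.84 in MaSC organoids. Krt13, the usual type I partner of Krt4 in internal epithelia, had group means of 3.10 in yMaSC organoids, 3.08 in MaSC organoids and 3.04 in LD cells, below the lower quartile of every array. Krt79, known in mouse skin from the hair canal and the sebaceous duct, was at 4.22, 4.27 and 5.27 in yMaSC organoids, at 4.40, 4.26 and 5.44 in MaSC organoids and at 6.85, 6.35 and 6.77 in LD cells (-2.07 in yMaSC organoids, adjusted p = 0.0024, and -1.96 in MaSC organoids, adjusted p = 0.00304). Krt78 was at 5.74, 5.86 and 6.19 in yMaSC organoids, at 5.68, 5.65 and 6.01 in MaSC organoids and at 7.53, 7.72 and 7.06 in LD cells (-1.51 in yMaSC organoids, adjusted p = 0.000455, and -1.66 in MaSC organoids, adjusted p = 0.000255). Each of the 3 was lower in every organoid array than in any LD array.

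At the other end of the type II cluster, Krt80, a keratin of differentiating epithelia, was at 5.86, 6.21 and 5.93 in yMaSC organoids, at 5.86, 6.37 and 4.83 in MaSC organoids and at 7.59, 7.96 and 7.56 in LD cells, 3.26-fold lower in yMaSC organoids (adjusted p = 0.0042) and 4.05-fold lower in MaSC organoids (adjusted p = 0.00166). Krt88 was at 6.45, 6.58 and 6.80 in yMaSC organoids, at 6.40, 6.53 and 6.74 in MaSC organoids and at 7.0, 7.40 and 7.42 in LD cells, a fall of 0.66 log2 in yMaSC organoids (adjusted p = 0.00953) and 0.72 in MaSC organoids (adjusted p = 0.00624). These falls were again present in every organoid array relative to every LD array. Both genes are type II.

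In chromosomal order the changes lay in runs and in sharp steps. On chromosome 15, Krt4, Krt79, Krt78, Krt8 and Krt18 follow each other with 0 other protein-coding genes between them, and all 5 were lower in each kind of organoid, although Krt18 is of the other type. On the same chromosome Krt6a, with differences of -5.22 log2 in yMaSC organoids and -5.81 in MaSC organoids, is the immediate neighbour of Krt5, with 2.56 in yMaSC organoids and 2.63 in MaSC organoids. On chromosome 11, Krt14, higher in yMaSC organoids, lies beside Krt16, with a difference of -4.69 there. Members that pass the test in opposite directions thus sat side by side, and between the runs lay stretches of keratins whose differences were all small, such as Krt71, Krt72, Krt73, Krt2, Krt1, Krt77 and Krt76 on chromosome 15. The group means of this stretch, from 2.43 (Krt2, MaSC organoids) to 5.23 (Krt73, MaSC organoids), lay near or below the array medians. Small differences of such dim genes do not show that the genes were unchanged.

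**Figure D2:**
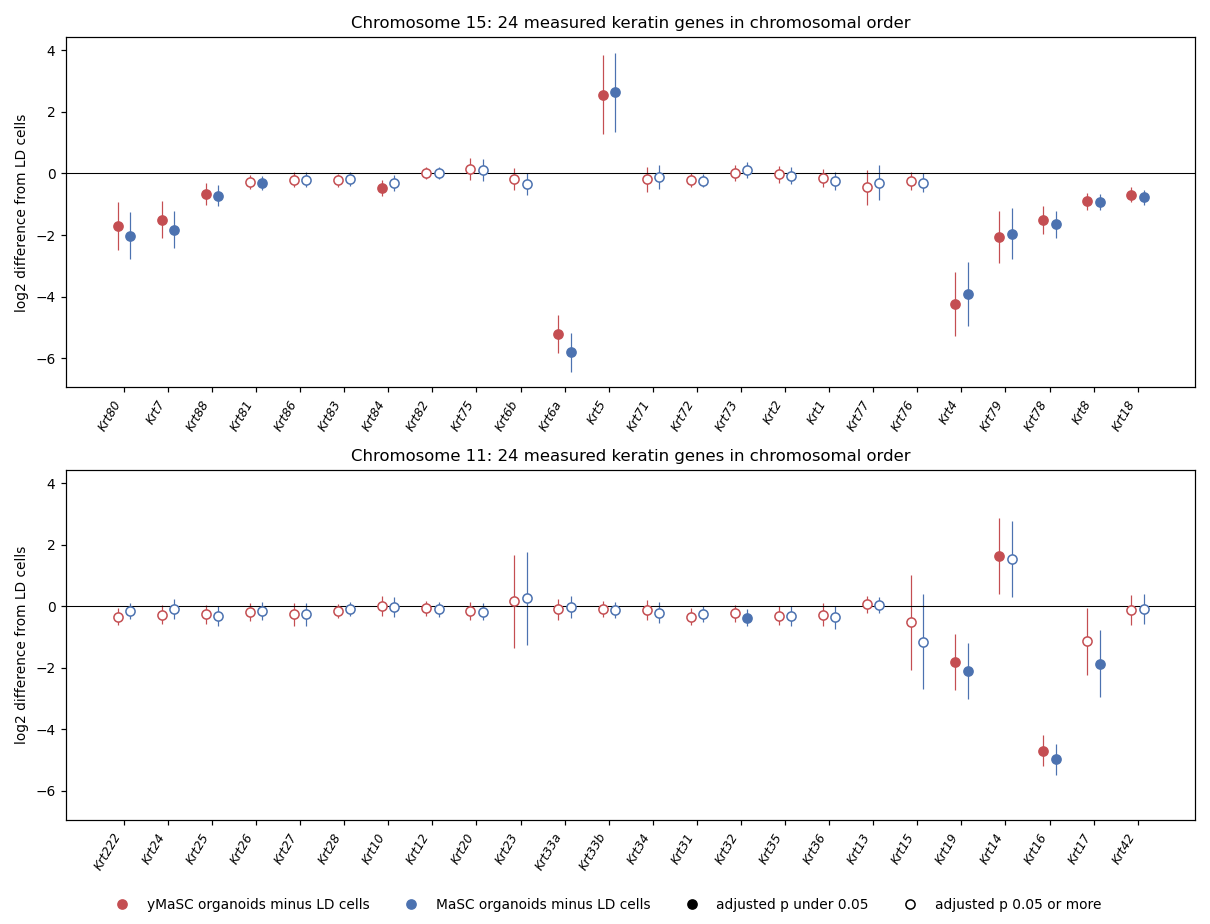
Log2 difference from LD cells (y axis) of yMaSC organoids and MaSC organoids for the 24 measured keratins of chromosome 15 (top) and the 24 of chromosome 11 (bottom), in chromosomal order (x axis), with 95% intervals from the limma fit as bars and filled points for an adjusted p under 0.05. Krt5 stands above 0 beside Krt6a below -5, and the run from Krt4 to Krt18 lies below 0.

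Few keratins of hair passed, and their differences were under 2-fold. Among the 12 hair shaft keratins measured, 1 was lower in yMaSC organoids (Krt84, -0.48 log2, adjusted p = 0.0105), where 14.3% of all genes were, and 2 in MaSC organoids (Krt32, -0.37, adjusted p = 0.0372, and Krt81, -0.30, adjusted p = 0.0444), where 15.2% of all genes were, and 0 were higher. Krt84 was at 4.54, 4.49 and 4.78 in yMaSC organoids, at 4.79, 4.65 and 4.86 in MaSC organoids and at 5.04, 5.01 and 5.21 in LD cells, and it did not pass in MaSC organoids (-0.32, adjusted p = 0.0579). Krt32 was at 4.76, 4.73 and 4.60 in yMaSC organoids, at 4.45, 4.73 and 4.50 in MaSC organoids and at 4.87, 5.10 and 4.82 in LD cells. Krt81 was at 6.72, 6.85 and 6.75 in yMaSC organoids, at 6.71, 6.67 and 6.83 in MaSC organoids and at 7.01, 6.93 and 7.18 in LD cells. In these 3 genes every organoid array lay below every LD array, but by small margins, and the calls for Krt32 and Krt81 were lost in 12 and 13 of the alternatives tried. Of the 7 inner root sheath keratins, 0 passed in either comparison, with median differences of -0.19 in yMaSC organoids and -0.14 in MaSC organoids.

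Krt1 and Krt10, the pair of the upper epidermis, did not pass. Krt1 was at 4.08, 4.19 and 4.47 in yMaSC organoids, at 4.12, 4.12 and 4.22 in MaSC organoids and at 4.54, 4.21 and 4.43 in LD cells (-0.15 in yMaSC organoids, adjusted p = 0.429, and -0.24 in MaSC organoids, adjusted p = 0.19). Krt10 was at 6.25, 6.42 and 6.59 in yMaSC organoids, at 6.12, 6.49 and 6.57 in MaSC organoids and at 6.32, 6.42 and 6.50 in LD cells, with a difference of 0.01 in yMaSC organoids (interval -0.32 to 0.33) and -0.02 in MaSC organoids (interval -0.35 to 0.31). The groups overlapped for both genes. Krt42 was bright in its main probe set, at 8.57, 8.55 and 8.64 in yMaSC organoids, at 8.57, 8.69 and 8.57 in MaSC organoids and at 8.28, 9.26 and 8.57 in LD cells, where array B alone was high (-0.12 in yMaSC organoids, adjusted p = 0.714, and -0.09 in MaSC organoids, adjusted p = 0.771). That probe set carries the suffix for shared probes, and the other Krt42 probe set, dimmer, was lower by 0.43 in yMaSC organoids (adjusted p = 0.00942) and 0.49 in MaSC organoids (adjusted p = 0.00472). The 25 keratins not described by array passed in neither comparison, with differences between -0.44 and 0.14 in yMaSC organoids and between -0.36 and 0.12 in MaSC organoids, and group means of at most 6.11.

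Between yMaSC organoids and MaSC organoids, 0 of the 48 keratins passed, against 0% of all 18194 genes, and 0 had an unadjusted p under 0.05. The 95% interval of the difference lay within 1 log2 for 39 of the 48 (81.2%), against 93.2% of all genes. It was narrow for Krt18 (0.09 log2, -0.15 to 0.34) and Krt8, and wide for Krt15 (0.63, -0.92 to 2.17), Krt5 (-0.07, -1.35 to 1.21), Krt14, Krt23 (-0.10, -1.61 to 1.42), Krt4 (-0.33, -1.37 to 0.70) and Krt17 (0.72, -0.36 to 1.80). Each of the wide intervals holds a difference of more than 2-fold in at least 1 direction, so the arrays do not show that the organoids express these keratins alike.

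Organoids that share a letter deviated from their group means together, so the letter was also used as a block in the 6 organoid arrays. The interval then lay within 1 log2 for 45 of the 48 (93.8%), against 98.1% of all genes, and 0 keratins passed. Krt23 narrowed to -0.29 to 0.10. An unadjusted p under 0.05 was given by 3 of the 48 keratins (6.25%), against 3.28% of all genes, with the yMaSC organoids above the MaSC organoids, namely Krt16 by 0.29 (0.10 to 0.48, unadjusted p = 0.0109 from limma), Krt6a by 0.59 (0.10 to 1.08, unadjusted p = 0.027) and Krt17 by 0.72 (0.05 to 1.40, unadjusted p = 0.0405), each with an adjusted p of 0.964 in limma. By letter, the differences for A, B and C were 0.28, 0.23 and 0.36 in Krt16, 0.83, 0.01 and 0.92 in Krt6a, and 1.47, 0.04 and 0.65 in Krt17. They were above 0 in each of the 3 pairs, with next to none at letter B for Krt6a and Krt17, and none passed after adjustment. The Krt16 values compared, 3.35 to 3.86, lie near the lower quartile of the arrays, where a size is not reliable.

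**Figure D3:**
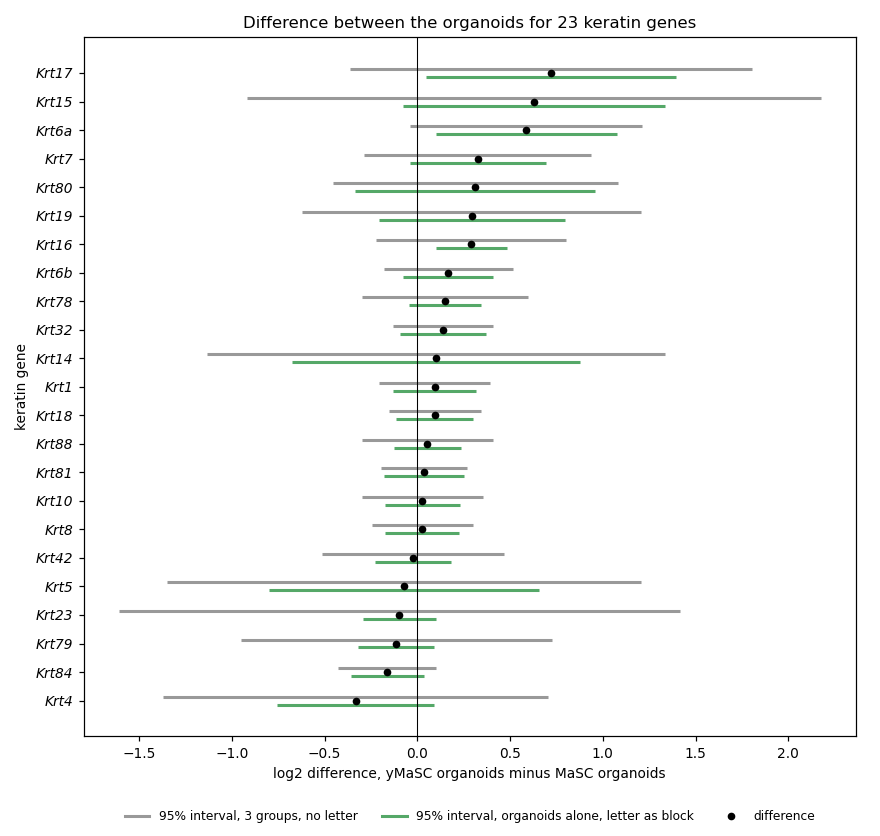
Log2 difference of yMaSC organoids minus MaSC organoids (x axis) for the 23 keratins described by array (y axis), with 95% intervals from the limma fit of the 3 groups without the letter (grey, upper) and from the 6 organoid arrays with the letter as a block (green, lower). Most intervals shorten with the block, and those of Krt16, Krt6a and Krt17 then lie above 0 before adjustment.

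In a limma test of the letter within the 6 organoid arrays, with the kind of organoid as a term, 3 of the 48 keratins (6.25%) passed, near the 5.52% of all genes, so the number that passed does not set the keratins apart. They were Krt23 (adjusted p = 0.00408), Krt79 (adjusted p = 0.0126) and Krt4 (adjusted p = 0.0423), with Krt15 next (adjusted p = 0.0527). Krt23, a type I epithelial keratin, was at 5.34, 5.54 and 7.54 in yMaSC organoids, at 5.53, 5.61 and 7.57 in MaSC organoids and at 6.03, 5.86 and 6.04 in LD cells. Both arrays of letter C were about 2 log2 above the other 4 organoid arrays and above all LD arrays, while the other 4 organoid arrays lay below all LD arrays. Against LD cells Krt23 did not pass over all arrays (0.16 in yMaSC organoids, adjusted p = 0.874, and 0.26 in MaSC organoids, adjusted p = 0.795). Without both arrays of letter C it was lower (-0.54 in yMaSC organoids, adjusted p = 0.0138, and -0.41 in MaSC organoids, adjusted p = 0.0401). That fit drops the very arrays in which Krt23 was high, so it does not show that Krt23 is lower in the organoids.

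Both letter C organoid arrays were above the other 4 for 13 of the 48 keratins (27.1%), against 17.1% of all genes, and below them for 0, against 17.8%. The mean of letter C exceeded that of A and B by 2.05 log2 for Krt23, 1.81 for Krt15, 1.53 for Krt5, 1.40 for Krt14, 1.28 for Krt4, 1.22 for Krt17, 1.07 for Krt79 and 1.0 for Krt19, and by less than 1 for the other keratins. Krt8 differed by -0.17 and Krt18 by -0.002. Of these only Krt23, Krt79 and Krt4 passed the test of the letter, and Krt19, Krt5, Krt14 and Krt17 did not (adjusted p = 0.0799, 0.0891, 0.117 and 0.12 in limma). Markers of basal and myoepithelial cells moved with it, and both letter C arrays were above the other 4 organoid arrays for 9 of the 11 measured and below them for 0. Among the 10 luminal markers, both were above for 4 and below for 2. The basal markers averaged 9.11 and 9.79 in yMaSC and MaSC organoids of letter C and 8.09 to 8.33 in the other 4 organoid arrays. Acta2, smooth muscle actin, was at 10.32, 10.32 and 11.45 in yMaSC organoids A, B and C, at 10.36, 10.10 and 12.37 in MaSC organoids and at 7.33, 8.82 and 7.33 in LD cells. The part of these cells in the keratin values of letter C was not tested.

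**Figure D4:**
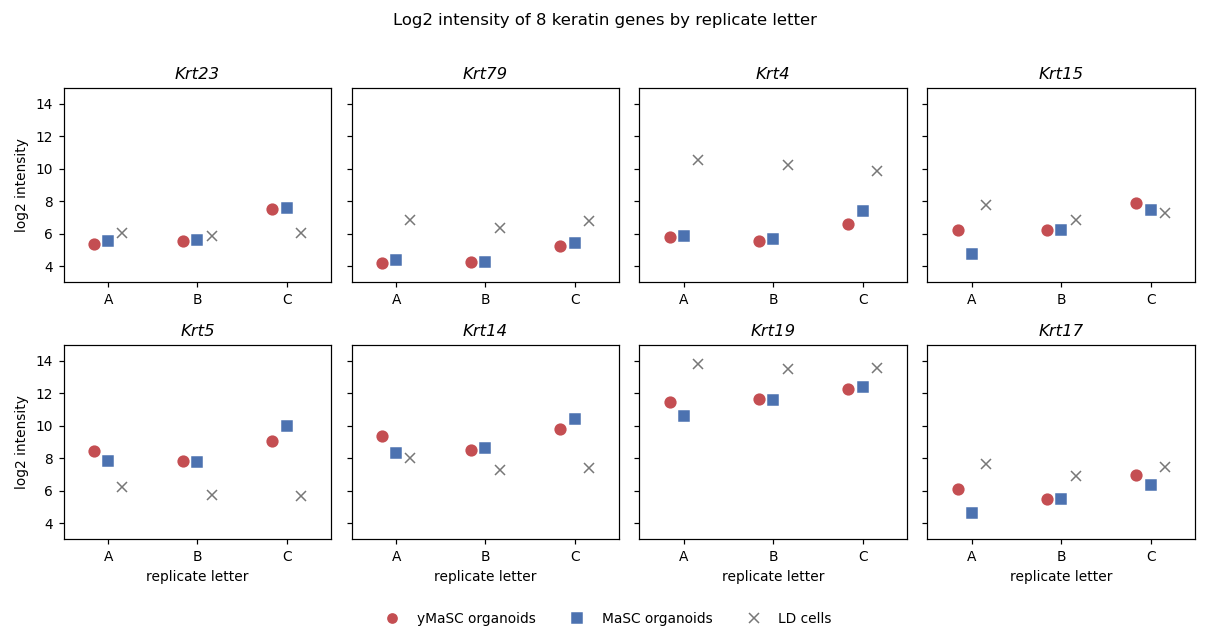
Log2 intensity (y axis) of 8 keratin genes by replicate letter (x axis) in yMaSC organoids (circles), MaSC organoids (squares) and LD cells (crosses). The 8 shown are the keratins whose organoid mean at letter C was at least 1 log2 above that of A and B. That all 8 were higher in the organoids of letter C therefore follows from the choice. LD cells of letter C were not set apart, and letters do not pair LD cells with organoids.

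The genes of proteins that anchor keratin filaments were lower or did not pass. Of 12 genes listed as linkers of the filaments, most of them in desmosomes and hemidesmosomes, 4 were lower and 0 higher in each kind of organoid. Among all genes 14.3% were lower and 21.6% higher in yMaSC organoids, and 15.2% lower and 22.1% higher in MaSC organoids. The 12 had median differences of -0.54 in yMaSC organoids and -0.49 in MaSC organoids. The lower ones were Plec, the giant linker plectin (-1.67 in yMaSC organoids, adjusted p = 0.000322, and -1.68 in MaSC organoids, adjusted p = 0.000295), and the plakophilins Pkp2 and Pkp1 and plakoglobin, Jup. In yMaSC organoids Pkp2 differed by -1.04, Pkp1 by -0.92 and Jup by -0.94, and in MaSC organoids Pkp2 differed by -1.04, Pkp1 by -1.13 and Jup by -0.82. Dsp, desmoplakin, which ties the filaments to the desmosome, averaged 11.68 in yMaSC organoids, 11.61 in MaSC organoids and 11.69 in LD cells and did not pass. With the replicate letter as a block over all arrays, 7 of the 12 linkers were lower in each kind of organoid. That fit pairs letters that LD cells do not share with the organoids, and the share of all genes lower in it was not counted.

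Among other intermediate filaments, 2 of 16 were lower and 0 higher in each comparison, a share lower near that of all genes (14.3% in yMaSC organoids and 15.2% in MaSC organoids). Both are nuclear lamins. With a common median for all arrays, 10 of the 16 were lower in each comparison, where 38.1% of all genes in yMaSC organoids and 38.4% in MaSC organoids were. Lmna averaged 10.44 ± 0.47 in yMaSC organoids, 10.46 ± 0.29 in MaSC organoids and 12.93 ± 0.07 in LD cells (SD, n = 3 each), lower by 2.49 log2 in yMaSC organoids (limma adjusted p = 8.55e-05) and 2.47 in MaSC organoids (limma adjusted p = 7.83e-05), and Lmnb1 was lower by 1.17 in yMaSC organoids and 1.10 in MaSC organoids. Vim, vimentin, the filament of mesenchymal and basal mammary cells, averaged 8.50 in yMaSC organoids, 8.51 in MaSC organoids and 8.99 in LD cells and did not pass.

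Genes of the cornified envelope and keratinization, which accompany Krt1 and Krt10 in skin, gave 5 lower and 1 higher of 22 measured in yMaSC organoids, against 14.3% of all genes lower and 21.6% higher, and 7 lower and 1 higher in MaSC organoids, against 15.2% lower and 22.1% higher. The higher gene was Ivl, involucrin (0.87 in yMaSC organoids, adjusted p = 0.0296, and 1.79 in MaSC organoids, adjusted p = 0.000805). Its LD values of 3.49, 3.55 and 2.81 lie near or below the lower quartile of the arrays, where a size is not reliable. With the mean of all probe sets per gene, 0 genes of the list were higher in yMaSC organoids and 1 in MaSC organoids. The lower ones included Tgm1, the transglutaminase that crosslinks the envelope (-2.55 in yMaSC organoids, adjusted p = 0.00426, and -2.6 in MaSC organoids, adjusted p = 0.00365), Sprr1a, a small proline-rich precursor (-2.35 in yMaSC organoids and -2.36 in MaSC organoids), and Sbsn, suprabasin (-1.47 in yMaSC organoids and -1.597 in MaSC organoids). With a common median 14 were lower and 0 higher in yMaSC organoids, and 15 lower and 1 higher in MaSC organoids. Under that scaling 38.1% of all genes were lower in yMaSC organoids and 38.4% in MaSC organoids. Fewer passed without some single arrays. In yMaSC organoids 3 did without LD array C and 2 without yMaSC array B, and in MaSC organoids 4 did without LD array C or MaSC array B and 5 without MaSC array A or C. The shares of all genes in those fits were not counted. The median difference of the list was -0.17 in yMaSC organoids and -0.24 in MaSC organoids.

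Transcription factors and splicing factors of epithelial cells moved in both directions. Of 15, 7 were higher and 4 lower in yMaSC organoids, against 21.6% of all genes higher and 14.3% lower, and 8 were higher and 4 lower in MaSC organoids, against 22.1% higher and 15.2% lower. Trp63, which encodes the basal factor p63, the AP-2 genes Tfap2a (1.06 in yMaSC organoids and 1.23 in MaSC organoids) and Tfap2c (1.74 in yMaSC organoids and 1.58 in MaSC organoids), Grhl2, Ovol2, Elf5 and Ehf were the higher ones, and Esrp1 passed only in MaSC organoids (0.67 in yMaSC organoids, adjusted p = 0.0535, and 0.72 in MaSC organoids, adjusted p = 0.0394). Klf4, a factor of epithelial differentiation, averaged 6.44 ± 1.04 in yMaSC organoids, 5.84 ± 0.29 in MaSC organoids and 11.76 ± 0.25 in LD cells (SD, n = 3 each), lower by 5.32 log2 in yMaSC organoids and 5.92 in MaSC organoids. Klf5 was lower by 2.85 in yMaSC organoids and 3.06 in MaSC organoids, Ovol1, a repressor active in differentiating epidermis, by 3.25 in yMaSC organoids and 3.33 in MaSC organoids, and Elf3 by 1.47 in yMaSC organoids and 1.37 in MaSC organoids. Between yMaSC organoids and MaSC organoids, 0 genes of any of these lists passed.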

How the data were processed

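RNA of 9 samples, 3 per group, was measured on Affymetrix mouse arrays. The authors isolated RNA with Trizol, labelled cRNA with biotin, and deposited log2 values made by RMA (version not given in the sources used here), and 0 columns of the table belonged to other samples. Of 45101 probe sets, 34958 had 1 gene in the platform annotation, 932 several and 9211 none. Of the single-gene probe sets, 61 belonged to a keratin, and 1 probe set with several genes held a keratin and was left out. Per gene, the brightest probe set by its mean over the 9 arrays was kept, without a filter on low values, and all 48 keratins were found in RefSeq.

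With R 4.3.3 and limma 3.58.1, 1 fit of the 3 groups gave the 3 comparisons, adjusted by Benjamini-Hochberg over 18194 genes. The fit was tested on simulated data. The members and lists were chosen with earlier results of these data known, so no list was tested as a set, and the test of the letter was added after the data were seen. Keratins given by array were those that passed in either comparison with LD cells, 13 classical epithelial keratins, those with a group mean above the upper quartile of gene means and the 5 with the widest organoid range, 23 in all. Deviations from the group means correlated at 0.607, 0.611 and 0.649 between organoids of the same letter, and between -0.05 and 0.05 between organoids and LD cells, so the letter was taken to pair the organoids only. The p-values measure the spread between these samples, and the number of arrays limits the precision.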

Additional observations from a re-analysis of the deposited data

How the results depend on the processing

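The counts of changed keratins, 14 in yMaSC organoids and 15 in MaSC organoids against LD cells, stayed within 1.5 times under 21 of 22 alternatives each, with at least 10 of the same keratins. Leaving out single arrays gave 13 to 16 in either comparison. The exception was a common median for all arrays, which gave 35 in yMaSC organoids (2 higher, 33 lower) and 35 in MaSC organoids (1 higher, 34 lower). It moved the share of higher genes among all changed genes to 28.8% in yMaSC organoids and 30.0% in MaSC organoids, against 60.1% in yMaSC organoids and 59.3% in MaSC organoids as deposited. With cyclic loess this share was 49.8% in yMaSC organoids and 49.4% in MaSC organoids, and with quantile normalization 50.4% in yMaSC organoids and 50.8% in MaSC organoids. Between the organoids 0 keratins passed under all 24 alternatives, including the replicate letter as a block in all 9 arrays, in the 6 organoid arrays, or as a random effect. The block over all arrays, which pairs letters that LD cells do not share, gave 16 keratins in each comparison with LD cells. Of the 23 keratins described by array, Krt10, Krt23 and Krt42 reversed direction under at least 1 alternative, and none of these had passed. The other 25 were not followed singly. In yMaSC organoids Krt10 was -0.25 with a common median, -0.17 with cyclic loess, -0.28 with quantile normalization, -0.035 with array weights and -0.078 without both arrays of letter C, and -0.078 to 0.092 without single arrays. In MaSC organoids it was -0.108 to 0.117 without single arrays. In yMaSC organoids Krt23 was -0.093 with a common median, -0.031 with quantile normalization, -0.28 with array weights and -0.54 without both arrays of letter C, and -0.54 (without yMaSC array C) to 0.563 without single arrays. In MaSC organoids it was -0.17 with array weights and -0.41 without both arrays of letter C, and -0.41 (without MaSC array C) to 0.613 without single arrays. Krt42 was 0.022 with array weights in MaSC organoids. Without single arrays it was -0.328 to 0.162 in yMaSC organoids and -0.305 to 0.185 in MaSC organoids, highest without LD array B. The cause of these changes was not tested. Krt14 in yMaSC organoids was also lost with array weights, a trended robust prior, quantile normalization and cyclic loess (limma adjusted p = 0.0515 to 0.107), and in MaSC organoids passed with 5 alternatives (limma adjusted p = 0.0279 to 0.0389). The 2-fold limit left 10 keratins in each comparison with LD cells. For the comparisons with LD cells, shares of all genes were counted only as deposited and with a common median, cyclic loess or quantile normalization. The keratin counts of the other alternatives therefore have no share of all genes beside them. With 3 arrays per group, intervals of the more variable keratins exceed 2-fold, and dim keratins have no reliable size of change.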
